A study of Macaca mulatta with 16 samples.

Results

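Signalling by TGF-beta and BMP was described through 10 genes in the fetal lung of the rhesus macaque: the ligands TGFB1, TGFB2, TGFB3, INHBA, BMP4 and BMP5, the receptor BMPR2, the secreted antagonist GREM1, and the pathway-responsive genes ID1 and SMAD7. The 10 genes were chosen by name as members of the pathway, with earlier results of these data known. The rows whose rhesus Ensembl identifiers carry these symbols were taken from the table of 22515 genes. All 10 had a row, and all 10 were among the 19199 genes with enough reads to be tested. The samples were the lungs of 16 fetuses in 5 groups, each with 1 bulk poly(A) RNA library. Preterm controls (n = 4, delivered at 131 to 135 days of gestation) and term controls (n = 2, delivered at 156 and 157 days) had no intervention according to the labels. The LPS 16h group (n = 4, delivered at 130 or 131 days) received 1 mg of bacterial lipopolysaccharide, an agonist of TLR4, into the amniotic fluid 16 hours before delivery. The LPS 5d group (n = 3, delivered at 131 to 134 days) received the same dose 5 days before delivery. The LPS + Beta-Ac group (n = 3, delivered at 131 or 132 days, also at 5 days) received that LPS dose together with 0.125 mg/kg of betamethasone acetate, a long-acting corticosteroid, given intramuscularly to the dam. Because the controls had no injection, the injection itself and LPS cannot be told apart.

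TGF-beta, activin and BMP ligands bind pairs of type I and type II serine/threonine kinase receptors at the cell surface. TGF-beta and activin receptors mainly phosphorylate SMAD2 and SMAD3, whereas BMP receptors mainly phosphorylate SMAD1, SMAD5 and SMAD9, and both branches use SMAD4 as a partner. In the developing lung BMP signalling takes part in the patterning of the branching epithelium and in vascular growth, and TGF-beta signalling regulates the mesenchyme and its matrix. Secreted antagonists such as gremlin and noggin bind BMPs outside the cell, and SMAD6 and SMAD7 limit the response inside it.

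The libraries held 20169363 to 28348816 counts in the preterm controls, 20214144 to 27160740 in the LPS 5d group, 24354892 to 27408405 in the LPS + Beta-Ac group, and 25883623 and 27616930 in the term controls. The 4 LPS 16h libraries were deeper than every other library, with 30596371 to 48052891 counts. Levels are therefore given as CPM, counts divided by the library total and rescaled by TMM, a factor that corrects for the share of reads taken by a few abundant genes, and no levels are compared between genes. Each of the 5 lung epithelial markers looked at (NKX2-1, EPCAM, CDH1, SFTPB and SFTPC) had counts in every animal. The tissue also changed in composition or activity between groups. The summed level of 9 leukocyte markers was 156.5 to 285.3 CPM in the preterm controls, 2338 to 3056 CPM in the LPS 16h group, 298.6 to 321.9 CPM in the LPS 5d group, 517.5 to 846.1 CPM in the LPS + Beta-Ac group, and 365 to 451.4 CPM in the term controls. For 8 fibroblast and mesenchyme markers the sum was 12240 to 20550 CPM in the preterm controls, 8566 to 12020 CPM in the LPS 16h group, 7886 to 13960 CPM in the LPS 5d group, 7543 to 10530 CPM in the LPS + Beta-Ac group, and 7580 to 7727 CPM in the term controls. None of the markers in these lists was at 0 in any animal.

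A gene was called changed where the difference between groups was at least 2-fold with an adjusted p below 0.05 over all genes tested, from 1 limma model of the 16 animals. The largest changes among the 10 genes were in GREM1 and BMP5, both lower 5 days after LPS than in preterm controls, and GREM1 was also lower than in preterm controls in the LPS + Beta-Ac group. At 16 hours none of the 10 genes was called, beside 14.4% of all genes tested (8.30% higher and 6.07% lower), and 3 of the 10 had an adjusted p below 0.05, beside 38.3% of all genes. At 5 days 2 of the 10 were called, both lower, beside 4.83% of all genes (2.60% higher and 2.23% lower), and 4 had an adjusted p below 0.05, beside 14.7%. In the LPS + Beta-Ac group 1 was called, lower, beside 6.50% of all genes (4.05% higher and 2.44% lower), and 4 had an adjusted p below 0.05, beside 17.3%. In term controls none was called, beside 2.07% of all genes (1.11% higher and 0.953% lower), and 1 had an adjusted p below 0.05, beside 3.99%. The median change of the 10 genes on the log2 scale was -0.28 at 16 hours, where that of all genes tested was -0.09. It was -0.21 at 5 days, -0.21 with LPS + Beta-Ac and -0.22 at term, where the medians of all genes were -0.002, -0.01 and -0.01. These 4 comparisons share the preterm controls, so they are not independent of each other. In bulk tissue, fewer cells of a type and less RNA per cell cannot be told apart, which holds for every difference that follows.

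**Figure D1:**
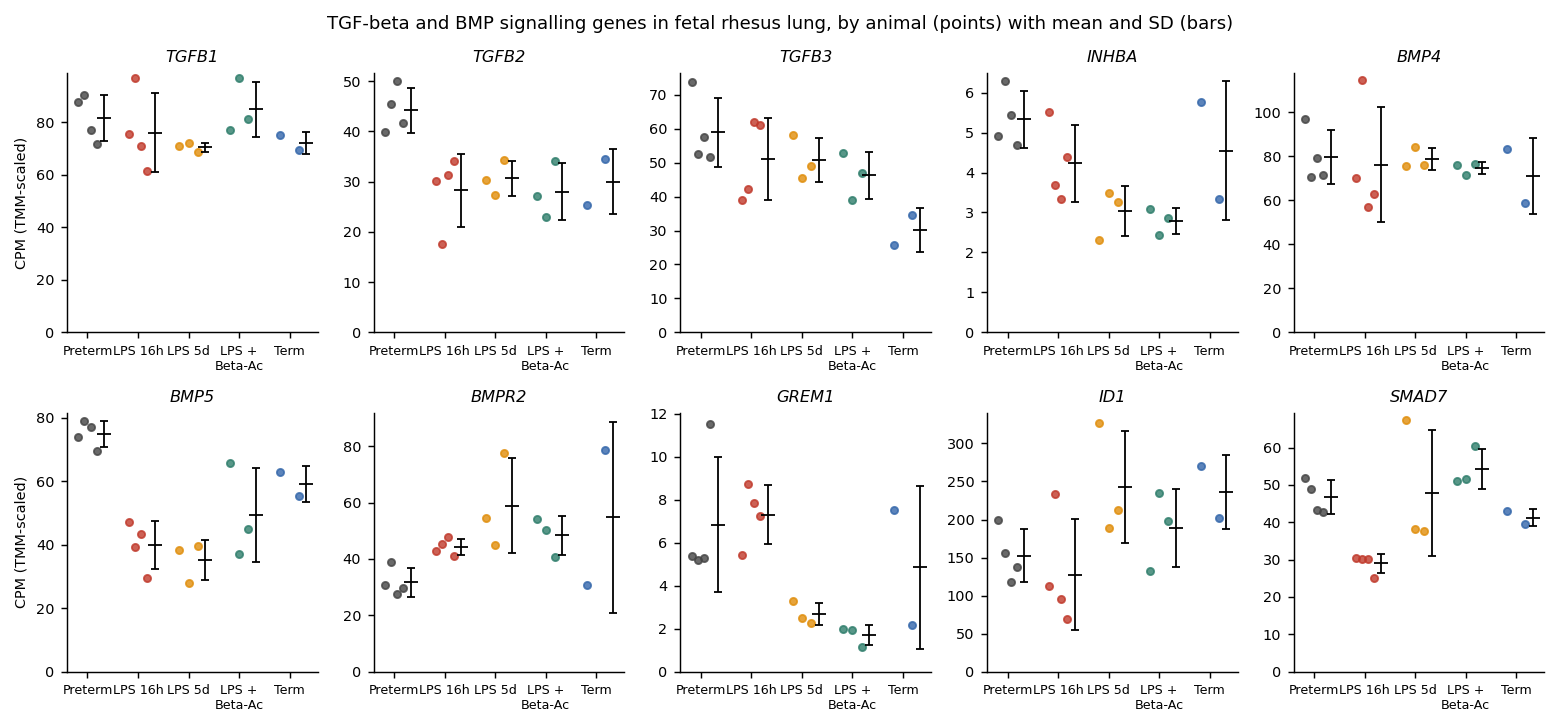
Level of each of the 10 genes in CPM (y axis, from 0) in each animal (points) of the 5 groups (x axis), with the group mean and SD beside the points. BMP5 and TGFB2 lay below all 4 preterm controls in every LPS-exposed animal, and GREM1 lay below all 4 in the 6 animals delivered 5 days after LPS with or without Beta-Ac.

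BMP5 (ENSMMUG00000011858), a BMP ligand of the developing mesenchyme, showed the clearest separation of groups. In CPM, the preterm controls were at 74.0, 79.1, 77.0 and 69.6. Levels at 16 hours after LPS were 47.0, 39.3, 43.5 and 29.6. At 5 days they were 38.2, 28.0 and 39.5. Every animal of both LPS groups was thus below every preterm control, with no overlap. The level at 5 days was 2.15-fold lower than in preterm controls (log2 change -1.10, SE 0.19, adjusted p = 0.00166), which was a call. It held when each animal was left out in turn except without LPS 5d animal 240, where the change was -0.94 with an adjusted p of 0.0136. At 16 hours the difference was 1.90-fold (log2 change -0.93, SE 0.18, adjusted p = 0.000727), short of 2-fold, and it passed 2-fold (log2 change -1.02) when animal 026 was left out. In the LPS + Beta-Ac group BMP5 was at 65.8, 37.1 and 45.0 CPM, and in the term controls at 63.1 and 55.2 CPM. All 5 of these animals were also below the preterm controls, and the LPS + Beta-Ac animals overlapped the LPS 5d animals. The change with LPS + Beta-Ac was -0.64 (SE 0.19, adjusted p = 0.0294), and the change at term was -0.34 (SE 0.22, adjusted p = 0.429). Leaving out LPS + Beta-Ac animals 249 or 255 or preterm controls 092, 101 or 113 brought the adjusted p with LPS + Beta-Ac to between 0.0586 and 0.188.

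BMP4 (ENSMMUG00000000429), a BMP ligand of the distal lung bud, was called in none of the 6 comparisons. Its level was 79.7 ± 12.3 CPM in preterm controls (SD, n = 4), 76.1 ± 26.1 in the LPS 16h group (n = 4), 78.6 ± 5.0 in the LPS 5d group (n = 3), 74.8 ± 2.7 in the LPS + Beta-Ac group (n = 3) and 71.1 ± 17.3 at term (n = 2). These means lay within the spread of the animals, and 1 LPS 16h animal, 029, at 114.5 CPM, was above all others. The same animal was the highest of its group for TGFB1, GREM1 and ID1 and the lowest for TGFB2. The 95% interval of the log2 change of BMP4 at 5 days ran from -0.43 to 0.41. Its sign in that comparison depended on the scaling, with 0.02 under median-of-ratios size factors.

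Among the TGF-beta ligands, TGFB2 (ENSMMUG00000004071) was the one that lay below the preterm controls in all 4 other groups. The preterm controls were at 39.9, 45.4, 49.98 and 41.6 CPM. The LPS 16h animals were at 30.1, 17.6, 31.3 and 34.1 CPM, and the LPS 5d animals at 30.3, 27.4 and 34.4 CPM. With LPS + Beta-Ac the levels were 27.2, 22.9 and 34.1 CPM. Both term controls, at 25.4 and 34.6 CPM, were below the preterm controls as well. The log2 change was -0.68 at 16 hours (SE 0.19, adjusted p = 0.0108) and -0.67 with LPS + Beta-Ac (SE 0.21, adjusted p = 0.0356). It was -0.53 at 5 days (adjusted p = 0.104) and -0.57 at term (adjusted p = 0.196), and none of the 4 reached 2-fold. With LPS + Beta-Ac the adjusted p was between 0.0504 and 0.198 when animal 248 or 249 or preterm control 092, 101 or 113 was left out. At 5 days it was 0.0215 when only the groups compared were fitted.

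TGFB3 (ENSMMUG00000012069), the third TGF-beta isoform, was lowest at term. Its level was 58.9 ± 10.3 CPM in preterm controls, 51.0 ± 12.2 in the LPS 16h group, 50.8 ± 6.5 in the LPS 5d group and 46.3 ± 7.0 in the LPS + Beta-Ac group. The 2 term controls were at 25.6 and 34.7 CPM, below each of the other 14 animals, and the log2 change against preterm controls was -0.96 (SE 0.22, adjusted p = 0.0246). That value just missed 2-fold. It passed 2-fold without preterm control 101 or 209 or term control 201 (log2 changes of -1.02, -1.02 and -1.18), whereas the adjusted p was 0.0649, 0.0571 and 0.23 without preterm control 092, preterm control 113 and term control 200, and 0.0689 when only the groups compared were fitted. None of the exposed groups differed from preterm controls past the threshold (adjusted p = 0.347 at 16 hours, 0.539 at 5 days and 0.248 with LPS + Beta-Ac).

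TGFB1 (ENSMMUG00000008142), the isoform made by many leukocytes as well as by structural cells, kept within a narrow range. It was at 81.6 ± 8.8 CPM in preterm controls, 76.0 ± 14.9 in the LPS 16h group, 70.5 ± 1.7 in the LPS 5d group, 84.96 ± 10.5 in the LPS + Beta-Ac group and 72.1 ± 4.0 at term. None of the 6 comparisons passed the test, and the 95% interval of the log2 change at 16 hours ran from -0.39 to 0.16. That interval stands beside leukocyte markers of which 7 of 9 were called higher at 16 hours, beside 8.30% of all genes. The part of leukocytes and of structural cells in the level of TGFB1 was not tested.

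INHBA (ENSMMUG00000061466) encodes the subunit of activin A, a ligand of the SMAD2/3 branch. The preterm controls were at 4.92, 6.29, 5.43 and 4.69 CPM. At 5 days the levels were 2.32, 3.49 and 3.27 CPM after LPS and 3.09, 2.43 and 2.85 CPM after LPS + Beta-Ac. All 6 animals delivered at 5 days were below the preterm controls, whereas the LPS 16h animals, at 5.51, 3.68, 3.33 and 4.39 CPM, overlapped them. The log2 change was -0.81 at 5 days (SE 0.23, adjusted p = 0.0274) and -0.92 with LPS + Beta-Ac (SE 0.23, adjusted p = 0.0125), both short of 2-fold. At 5 days, leaving out LPS 5d animal 239 or 242 or preterm control 101 or 113 gave an adjusted p of 0.14, 0.0502, 0.0723 and 0.0626, and with LPS + Beta-Ac leaving out animal 249 gave 0.0689. At 16 hours the change was -0.35 (adjusted p = 0.22). INHBA was sparsely covered, with 64 to 157 counts per library, so counting error weighs more on it than on the other ligands.

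BMPR2 (ENSMMUG00000009009), the type II BMP receptor whose mutation causes heritable pulmonary arterial hypertension, was the 1 member whose level was above the preterm range in all 3 exposed groups. The preterm controls were at 30.8, 39.0, 27.4 and 29.6 CPM. Those at 16 hours were at 42.8, 45.2, 47.9 and 41.2 CPM, and the LPS 5d animals at 54.4, 45.0 and 77.5 CPM. With LPS + Beta-Ac the levels were 54.3, 50.3 and 40.7 CPM. Each of these 10 exposed animals was above the highest preterm control. At 5 days BMPR2 was 1.83-fold higher (log2 change 0.87, SE 0.25, adjusted p = 0.0316), and without animal 242, the highest, the change was 0.65 with an adjusted p of 0.144. Leaving out LPS 5d animal 239 or preterm control 092, 113 or 209 gave adjusted p-values of 0.0576 to 0.0831, and leaving out animal 240 took the change past 2-fold (1.04, adjusted p = 0.0363). The changes at 16 hours (0.49, SE 0.23, adjusted p = 0.113) and with LPS + Beta-Ac (0.61, SE 0.25, adjusted p = 0.115) did not pass the test, but had adjusted p-values of 0.0115 and 0.0233 when only the groups compared were fitted. The 2 term controls disagreed, at 30.9 and 78.7 CPM, and leaving out the higher one took the change at term from 0.65 to -0.03, while leaving out the lower one took it to 1.32 (adjusted p = 0.0316).

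GREM1 (ENSMMUG00000001810), a secreted antagonist that binds BMP2, BMP4 and BMP7, had the largest change of the 10 genes. The preterm controls were at 5.36, 5.18, 5.28 and 11.5 CPM, the last of them, animal 209, standing apart. The LPS 16h animals were at 5.44, 8.72, 7.83 and 7.24 CPM. The LPS 5d animals were at 3.27, 2.49 and 2.28 CPM. In the LPS + Beta-Ac group the levels were 1.99, 1.92 and 1.16 CPM, the lowest of the 5 groups. The LPS 16h animals thus stayed within the preterm range and all 6 animals delivered at 5 days were below it. GREM1 fell with LPS + Beta-Ac by 1.92 on the log2 scale (3.78-fold, SE 0.38, adjusted p = 0.00264), and this held when each animal was left out in turn (log2 changes of -2.06 to -1.64, adjusted p at most 0.0164). It fell by 1.25 on the log2 scale at 5 days after LPS alone (2.39-fold, SE 0.38, adjusted p = 0.0355). That call was close to the threshold. It was lost when any 1 of preterm controls 092, 113 or 209 or of LPS 5d animals 239, 240 or 242 was left out, with adjusted p-values of 0.0532, 0.0531, 0.0848, 0.0599, 0.112 and 0.113. It was also lost with limma-voom weights (adjusted p = 0.0553). The term controls were at 7.54 CPM, inside the preterm range, and at 2.17 CPM, below it, and the change was -0.65 (SE 0.43, adjusted p = 0.447).

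Of the 8 fibroblast and mesenchyme markers, 5 had an adjusted p below 0.05 at 16 hours, 0 at 5 days, 3 with LPS + Beta-Ac and 3 at term. Their median log2 change was -0.76 at 16 hours, -0.48 at 5 days, -0.58 with LPS + Beta-Ac and -0.78 at term, with 2, 0, 2 and 3 of 8 called lower. At 16 hours PDGFRA (0.23, adjusted p = 0.331) and at 5 days TCF21 (0.07, adjusted p = 0.857) had values above 0. Proliferation markers (MKI67, TOP2A, CCNB1, CDK1 and BIRC5) were called lower in 5 of 5 genes at 5 days, in 3 with LPS + Beta-Ac, in 5 at term and in 0 at 16 hours. Their part in the lower GREM1, BMP5, TGFB2 and INHBA was not tested.

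**Figure D2:**
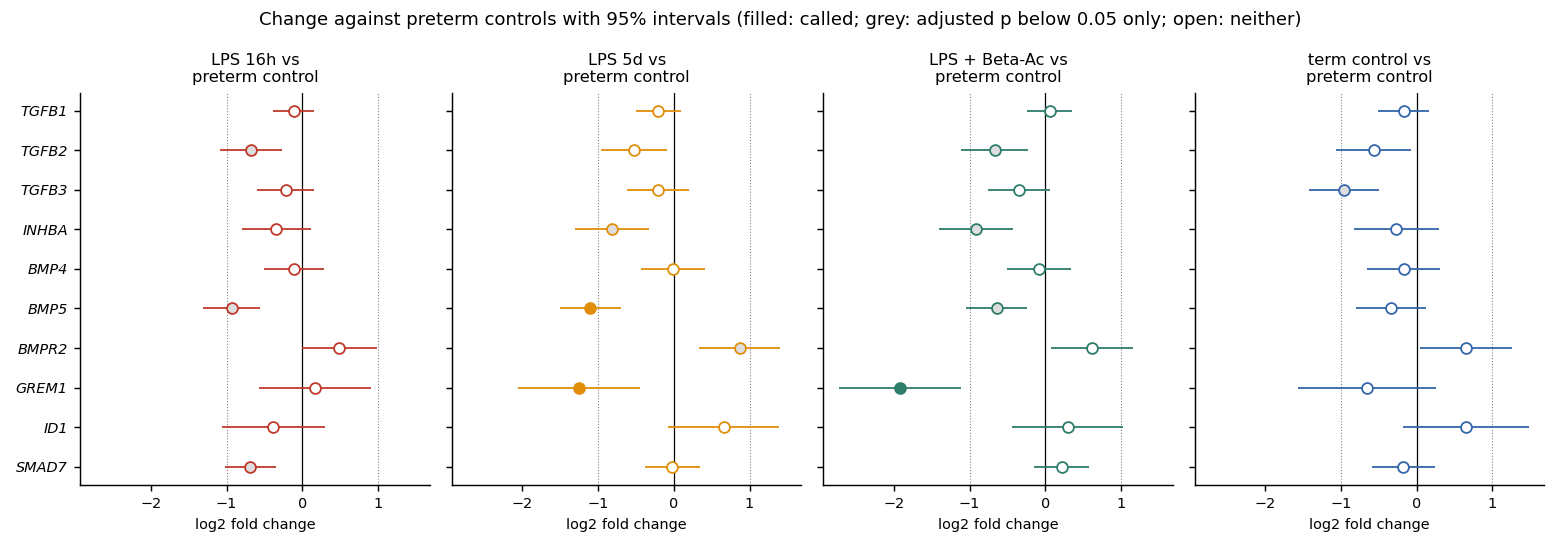
Log2 fold change of the 10 genes (y axis) against preterm controls (x axis; dotted lines mark 2-fold) in the 4 comparisons, with 95% intervals of the limma model. Filled points are calls, grey points have an adjusted p below 0.05 without reaching 2-fold, and open points have neither. GREM1 with LPS + Beta-Ac is farthest from 0, at -1.92, while TGFB1 and BMP4 have open points in all 4 panels.

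ID1 (ENSMMUG00000004403), a dominant-negative helix-loop-helix factor and a direct target of BMP-activated SMADs, differed between the 2 intervals after LPS more than it differed from controls. The preterm controls were at 198.8, 155.8, 117.5 and 137.3 CPM. The LPS 16h animals were at 112.2, 233.7, 95.7 and 69.1 CPM, and the LPS 5d animals at 327.0, 189.4 and 212.5 CPM. Of the 4 LPS 16h animals 3 were below all preterm controls and 1 was above all of them. The log2 change against preterm controls was -0.38 at 16 hours (SE 0.32, adjusted p = 0.37) and 0.66 at 5 days (SE 0.34, adjusted p = 0.232). Without animal 029, the high one, the change at 16 hours was -0.70 with an adjusted p of 0.0384. With LPS + Beta-Ac ID1 was at 132.8, 234.3 and 198.4 CPM (change 0.30, adjusted p = 0.62), and in the term controls at 270.3 and 202.2 CPM, both above the preterm controls (change 0.64, adjusted p = 0.407).

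SMAD7 (ENSMMUG00000056276), an inhibitory SMAD that is induced by TGF-beta and BMP and blocks their type I receptors, was lower at 16 hours. The preterm controls were at 52.0, 48.9, 43.3 and 42.7 CPM, and the LPS 16h animals at 30.4, 30.2, 30.1 and 25.1 CPM. The LPS 16h animals were closely grouped below every animal of the other 4 groups. The log2 change was -0.69 (1.61-fold, SE 0.16, adjusted p = 0.00308), which did not reach 2-fold, and with each animal left out in turn the adjusted p was at most 0.0121. At 5 days SMAD7 was at 67.3, 38.2 and 37.8 CPM, with 1 animal above and 2 below the preterm controls (change -0.02, adjusted p = 0.963). The LPS + Beta-Ac animals, at 50.9, 51.5 and 60.3 CPM, and the term controls, at 42.9 and 39.6 CPM, did not pass the test (adjusted p = 0.439 and 0.693).

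The question of how the 2 intervals after LPS differ was addressed by comparing LPS 16h with LPS 5d, which is also the test of the difference between their changes against the shared preterm controls. Of the 10 genes 1 was called higher at 16 hours and 1 lower, beside 14.6% of all genes tested (8.02% higher and 6.61% lower), and 3 had an adjusted p below 0.05, beside 35.0%. GREM1 was 2.68-fold higher at 16 hours than at 5 days (log2 difference 1.42, SE 0.38, adjusted p = 0.0083), and with each animal left out the difference stayed between 1.31 and 1.57. ID1 was 2.06-fold lower at 16 hours (log2 difference -1.04, SE 0.34, adjusted p = 0.029), although the groups overlapped because of the LPS 16h animal at 233.7 CPM. That ID1 call was lost without LPS 16h animals 026, 035 or 038 or LPS 5d animals 239 or 242, where the adjusted p was between 0.0522 and 0.134, and when only the groups compared were fitted (0.0649). SMAD7 was lower at 16 hours (log2 difference -0.67, SE 0.17, adjusted p = 0.0067), with no overlap. For BMP5 the 2 intervals did not differ past the threshold (log2 difference 0.17, 95% interval -0.23 to 0.58), nor for BMPR2 (-0.38, 95% interval -0.92 to 0.16) or INHBA (0.47, 95% interval -0.02 to 0.96). The remaining TGF-beta ligands and BMP4 had adjusted p-values of at least 0.603.

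Adding Beta-Ac to LPS was examined against LPS alone at the same interval of 5 days. No member was called, beside 0.104% of all genes tested, and the share with an adjusted p below 0.05 was the same 0.104%. At an unadjusted p below 0.05 there was 1 member, BMP5, which was 1.37-fold higher with Beta-Ac (log2 difference 0.46, 95% interval 0.02 to 0.89, adjusted p = 0.992). The share of all genes at that unadjusted threshold was not counted. The groups did not overlap for 2 of the 10 members and 5 of the 72 other pathway genes. The share of all genes without overlap was not counted, so these separations are descriptions only. The GREM1 levels of the 3 LPS + Beta-Ac animals were all below those of the 3 LPS 5d animals, with a log2 difference of -0.66 and a 95% interval of -1.52 to 0.19. For TGFB1 the 3 LPS + Beta-Ac animals were all above the 3 LPS 5d animals, by 0.26 with an interval of -0.06 to 0.58. With 3 animals in each group these intervals still hold differences of more than 2-fold for GREM1 and ID1 (-1.15 to 0.42), and of less than 2-fold for the 8 other genes. Of the 9 leukocyte markers 0 were called and 0 had an adjusted p below 0.05 in this comparison (0.104% of all genes), the lowest adjusted p being 0.0782 for ITGAM, while 8 had an unadjusted p below 0.05 and levels in the 3 LPS + Beta-Ac animals above those of the 3 LPS 5d animals. Their part in these differences was not tested.

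The pathway beyond the 10 genes was read from a list of 74 further genes, of which 72 could be tested (MSTN and NODAL were too low). At 16 hours 9 of the 72 were called higher and 7 lower, at 5 days 3 and 3, with LPS + Beta-Ac 3 and 5, at term 1 and 6, between LPS + Beta-Ac and LPS 5d none, and between LPS 16h and LPS 5d 11 higher and 7 lower. The shares of all genes called given above are the background for these counts, although the list was chosen with earlier results of these data known. In the comparison of LPS + Beta-Ac with LPS 5d, 2 of the 72 had an unadjusted p below 0.05, a threshold for which the share of all genes was not counted.

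Of the 11 other ligands, 2 were called higher and 3 lower at 16 hours. BMP7, a BMP ligand bound by gremlin and noggin, was called lower in every comparison against preterm controls. Its mean level was 23.2 CPM in preterm controls, 6.503 CPM in the LPS 16h group, 8.65 CPM in the LPS 5d group, 9.91 CPM in the LPS + Beta-Ac group and 10.9 CPM at term. Its log2 changes were -1.85 (SE 0.18, adjusted p = 1.34e-06), -1.42 (SE 0.20, adjusted p = 0.000476), -1.21 (SE 0.20, adjusted p = 0.000705) and -1.08 (SE 0.22, adjusted p = 0.0167). The calls in the exposed groups held with each animal left out in turn, whereas the call at term was not checked in that way. BMP6 fell at 16 hours from 13.0 to 5.22 CPM (log2 change -1.36, SE 0.28, adjusted p = 0.0014), and GDF6 from 1.25 to 0.397 CPM (log2 change -1.40, SE 0.41, adjusted p = 0.0145, and 0.0536 without preterm control 113). GDF6 was also lower at 16 hours than at 5 days (log2 difference -1.54, adjusted p = 0.0139, and 0.0973 without LPS 5d animal 239). GDF10 was higher at 16 hours than at 5 days, at 122.7 against 20.03 CPM (log2 difference 2.65, SE 0.29, adjusted p = 7.11e-06). The mean of the preterm controls lay between these, at 38.85 CPM. At term GDF10 was called lower than in preterm controls (log2 change -1.67, adjusted p = 0.0137). That call was lost when either term control was left out. GDF15, a stress-induced ligand distant from the rest of the family, rose with LPS + Beta-Ac from 0.695 to 8.82 CPM (log2 change 3.50, SE 0.74, adjusted p = 0.00486). Its call at 16 hours (log2 change 1.99, adjusted p = 0.0328) was lost with limma-voom weights (adjusted p = 0.102) and when LPS 16h animal 026 or 029 or preterm control 092, 113 or 209 was left out (adjusted p of 0.0595 to 0.0891). GDF6 and GDF15 also rested on few reads, with 13.8 counts per library on average for GDF6 at 16 hours and 17.0 for GDF15 in preterm controls.

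Among the 11 other receptors 1 was called in any comparison. ACVR2B, a type II receptor for activins and some BMPs, was at a mean of 2.60 CPM in preterm controls and 2.58 CPM in the LPS 16h group. It rose to 6.97 CPM in the LPS 5d group (log2 change 1.43, SE 0.26, adjusted p = 0.00238) and to 6.39 CPM in the LPS + Beta-Ac group (log2 change 1.31, SE 0.26, adjusted p = 0.00321). At term it was at 6.02 CPM (log2 change 1.17, adjusted p = 0.0414), but that call was lost without preterm control 092, 101 or 113 or term control 200 or 201 (adjusted p of 0.0683 to 0.31) and when only the groups compared were fitted (0.148). Like BMPR2 it was higher at 5 days, and unlike BMPR2 the difference between 16 hours and 5 days passed the test (log2 difference -1.46, SE 0.26, adjusted p = 0.000534). BMPR1A, a type I receptor that pairs with BMPR2, was chosen after its values were seen. Its log2 change was -0.62 at 16 hours (SE 0.14, adjusted p = 0.00287) and -0.57 with LPS + Beta-Ac (SE 0.15, adjusted p = 0.0178), the direction opposite to that of BMPR2. Of the 11 other receptors, 5 had log2 changes below 0 at 16 hours, 10 at 5 days, 9 with LPS + Beta-Ac and 9 at term. Their median log2 changes were 0.13, -0.22, -0.27 and -0.32, so the higher BMPR2 and ACVR2B do not stand for the receptors as a whole.

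The secreted antagonists other than GREM1 numbered 12. NOG (noggin) was called lower in the same 2 comparisons as GREM1, on few reads (8.3 and 9.3 counts per library on average at 5 days and with LPS + Beta-Ac), with mean levels of 0.978 CPM in preterm controls, 0.737 CPM at 16 hours, 0.330 CPM at 5 days and 0.351 CPM with LPS + Beta-Ac. It fell by 1.41 on the log2 scale at 5 days (SE 0.29, adjusted p = 0.0051) and by 1.33 with LPS + Beta-Ac (SE 0.29, adjusted p = 0.0056), and was higher at 16 hours than at 5 days (log2 difference 1.02, adjusted p = 0.013). TWSG1, a modulator of BMP binding to chordin, fell with LPS + Beta-Ac by 1.13 on the log2 scale (SE 0.20, adjusted p = 0.00148), and its change was -0.997 without preterm control 113. BMPER fell at term by 1.16 (SE 0.26, adjusted p = 0.0231), a call lost without preterm control 092, 101 or 113 or term control 200 or 201 (adjusted p of 0.054 to 0.16). CHRDL2, a chordin-like antagonist, rose at 16 hours from 1.85 to 19.4 CPM (log2 change 3.35, SE 0.19, adjusted p = 4.33e-09) and was at 1.80 CPM at 5 days. The antagonists were thus not uniform at 16 hours, when CHRDL2 was called higher and SOSTDC1, named after its values were seen, lower, and the 3 calls with LPS + Beta-Ac were all lower.

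**Figure D3:**
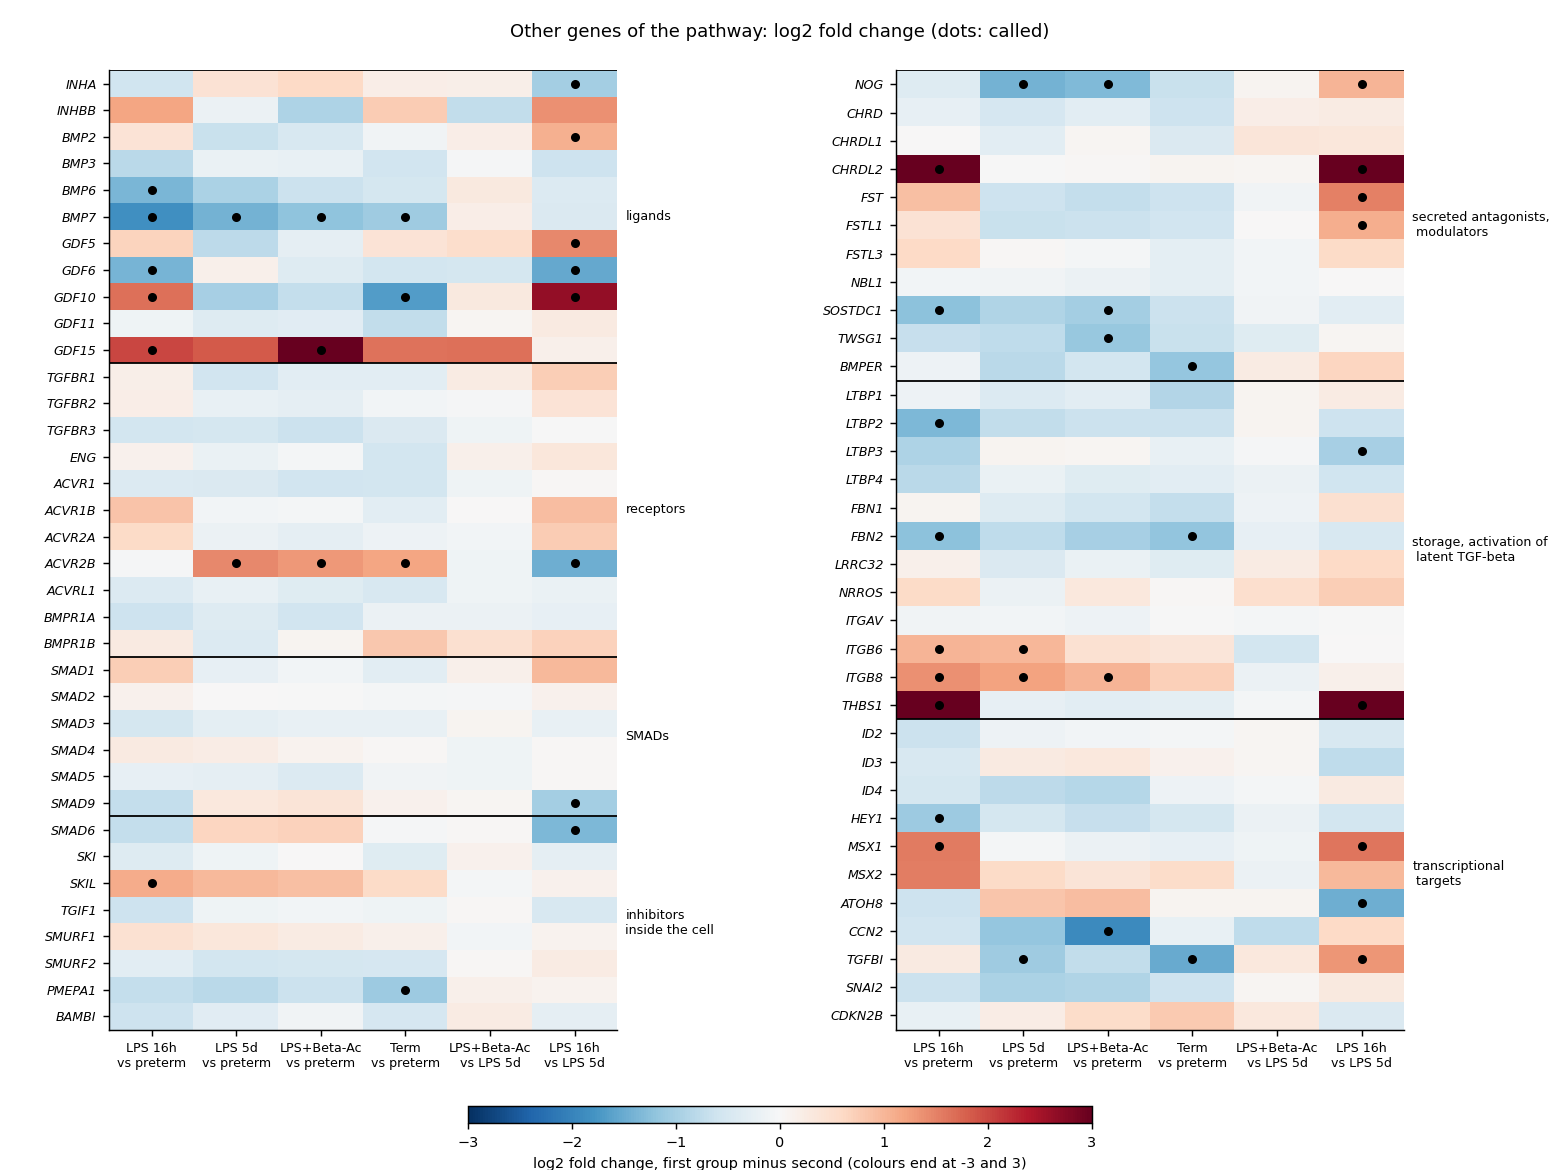
Log2 fold change (colour, from -3 to 3) of other pathway genes tested, in rows grouped by role, in the 6 comparisons (columns). A dot marks a call. THBS1 and CHRDL2 reach the end of the colour scale at 16 hours, and BMP7 carries a dot in each of the 4 comparisons against preterm controls.

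Genes for storing and activating latent TGF-beta numbered 12 in the list. THBS1 (thrombospondin-1, which can activate latent TGF-beta) was at a mean of 122.9 CPM in preterm controls and 3037 CPM in the LPS 16h group (log2 change 4.57, SE 0.27, adjusted p = 1.23e-08), and at 102.3 CPM at 5 days. ITGB8, which encodes an integrin subunit that releases TGF-beta from its latent complex, rose at 16 hours (log2 change 1.36, adjusted p = 0.000448), at 5 days (1.20, adjusted p = 0.00706) and with LPS + Beta-Ac (1.03, adjusted p = 0.0137). Its call with LPS + Beta-Ac was lost without LPS + Beta-Ac animal 248 or preterm control 092 or 113 (log2 changes of 0.89 to 0.94). ITGB6, whose product does the same on epithelium, was at 97.7 CPM in preterm controls and rose to 198.6 CPM at 16 hours (log2 change 1.02, adjusted p = 0.000253) and 194.8 CPM at 5 days (1.01, adjusted p = 0.00235), where the change was 0.90 to 0.98 without LPS 5d animal 242 or preterm control 101 or 113. LTBP2, a matrix protein of the latent TGF-beta binding family, fell at 16 hours from 445.8 to 175.0 CPM (log2 change -1.35, SE 0.13, adjusted p = 7.72e-07). FBN2, a microfibril protein, fell at term by 1.18 (adjusted p = 0.0431), a call lost when any 1 of the 6 animals of that comparison was left out (adjusted p of 0.052 to 0.255), with limma-voom weights (0.0501) and when only the groups compared were fitted (0.0512).

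Among the other transcriptional targets, CCN2 (connective tissue growth factor) fell with LPS + Beta-Ac from 191.4 to 51.9 CPM (log2 change -1.92, SE 0.43, adjusted p = 0.00687). TGFBI fell at 5 days from 148.5 to 69.5 CPM (log2 change -1.07, SE 0.22, adjusted p = 0.00519) and at term to 50.4 CPM (log2 change -1.51, SE 0.25, adjusted p = 0.00635, and 0.0502 without term control 200). At 5 days the TGFBI change was -0.90 without LPS 5d animal 242 and -0.91 without preterm control 113, short of 2-fold. At 16 hours 2 of the 12 other transcriptional targets were called higher and 1 lower, beside 8.30% and 6.07% of all genes. An adjusted p below 0.05 was found for 6 of the 12, beside 38.3% of all genes. CCN2 and TGFBI, both known to respond to TGF-beta, did not pass the test at 16 hours and do not stand for the whole list. Their log2 changes there were -0.57 for CCN2 (adjusted p = 0.275) and 0.26 for TGFBI, where the adjusted p was 0.341.

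Between 16 hours and 5 days, 3 of the 12 other transcriptional targets were called higher at 16 hours and 1 lower, and 0 of the 8 other inhibitors inside the cell were called higher and 1 lower, beside 8.02% and 6.61% of all genes. Of these 12 targets, 7 had log2 differences above 0 and 5 below. Over the 72 other pathway genes 11 were called higher and 7 lower. The genes given next were mostly lower at 16 hours and do not stand for the whole list. SMAD6, the inhibitory SMAD of the BMP branch, was at 13.3 CPM at 16 hours and 36.8 CPM at 5 days (log2 difference -1.36, SE 0.34, adjusted p = 0.00577), around 22.6 CPM in preterm controls. ATOH8, a BMP-induced factor of endothelium and other cells, was at 15.8 and 39.0 CPM (log2 difference -1.46, SE 0.36, adjusted p = 0.0054), around 21.7 CPM in preterm controls. ID3 was at 122.5 and 205.7 CPM (log2 difference -0.75, SE 0.26, adjusted p = 0.0332). An adjusted p below 0.05 in this comparison was found for 35.0% of all genes. Not all of the related genes passed. ID2 (log2 difference -0.49, adjusted p = 0.126) and HEY1 (-0.56, adjusted p = 0.115) did not pass, and ID4 differed by 0.27 (adjusted p = 0.317). ID4 was below preterm controls at both intervals, with log2 changes of -0.52 (adjusted p = 0.0357) and -0.79 (adjusted p = 0.0151). SMAD9, a receptor-regulated SMAD of the BMP branch, was 20.4 CPM at 16 hours and 40.5 CPM at 5 days (log2 difference -1.02, SE 0.19, adjusted p = 0.000697). SMAD9 and HEY1 were chosen after their values were seen. Against preterm controls, SMAD6 and ATOH8 passed the test at neither interval (adjusted p = 0.0855 and 0.15 at 16 hours, 0.235 and 0.143 at 5 days). LPS 5d animal 239 had the highest ID1 and SMAD7 of its group, and without it SMAD6 differed by -0.97, short of 2-fold, and ATOH8 by -1.003 between the intervals, with adjusted p-values of 0.0384 and 0.0271. The summed level of 6 endothelial markers was 1713 to 2078 CPM at 16 hours and 1415 to 2210 CPM at 5 days, and 0 of the 6 were called between these groups, although KDR was lower at 16 hours (log2 difference -0.77, adjusted p = 0.000297) without overlap. In the same comparison 7 of 9 leukocyte markers and 4 of 5 proliferation markers were called higher at 16 hours. TCF21, a mesenchymal factor, was 4.03-fold lower (adjusted p = 1.76e-06) and NKX2-1, a lung epithelial factor, 2.27-fold lower (adjusted p = 0.0002). The part of these markers in the differences between the intervals was not tested.

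**Figure D4:**
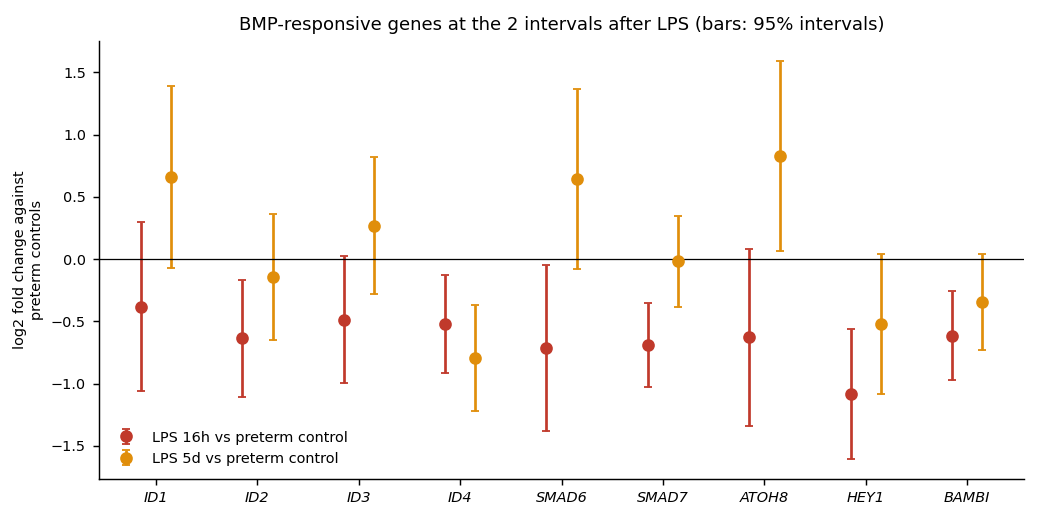
Log2 fold change against preterm controls (y axis) of 9 genes known to respond to BMP or to limit it (x axis) at 16 hours and at 5 days after LPS, with 95% intervals of the limma model. The genes were chosen with their values known, so a direction that they share is not a result. In the full lists at 16 hours, 4 of the 12 other transcriptional targets had log2 changes above 0. So did 2 of the 8 other inhibitors inside the cell. All 9 points at 16 hours lie below 0, while ID1, ID3, SMAD6 and ATOH8 lie above 0 at 5 days with intervals that include 0 for all of these but ATOH8.

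The 10 genes did not rise and fall as 1 block across the 16 animals. The highest Pearson correlations of log2 CPM between members were 0.64 for GREM1 with INHBA and 0.61 for ID1 with SMAD7, and the lowest was -0.65 for BMPR2 with INHBA. The genes of the whole table most like BMP5 were GASK1A (r = 0.91), GPCPD1 (0.86) and DYNLT3 (0.85). For GREM1 they were ACAN (0.90), SBDS (0.87) and PHLDA2 (0.86), and for ID1 they were ID3 (0.89), NTAN1 (0.88) and POLR1D (0.88). These are descriptions over the same 16 libraries, which share group and depth differences, and they carry no test.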

How the data were processed

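The authors extracted RNA from frozen fetal lung, selected poly(A) RNA and sequenced paired-end reads. The submitters' processing notes name kallisto, DESeq2 and the rhesus build Mmul_10, and the article names tximport. No source used here gives their versions or the annotation release. The labels name a phenol-based reagent for extraction and the article a column kit.

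The deposited values, 1 column per animal and 22515 Ensembl genes, were whole-number counts that the authors had not normalized. Because the column names are bare numbers, the layout could not be recognised as counts by the automatic unit check, the unit was recorded as other, and no count model was run. Symbols came with an identifier table for 17256 genes. Coordinates and sequences were not used here, as no table of the build was at hand.

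Groups came from the labels, which give no sex or batch. No 2 libraries of a group agreed within sampling noise. Genes with at least 0.371 CPM in 2 or more animals and 15 counts in all were kept (19199). Counts were scaled by TMM, turned into log2 CPM with a prior count of 2, and fitted in limma 3.58.1 (R 4.3.3, trend and robust) with 1 mean per group over 16 animals. Tests were two-sided with Benjamini-Hochberg adjustment over all genes tested in each of 6 comparisons, and calls needed an adjusted p below 0.05 and 2-fold. The procedure was tested on simulated data. In the main fit, p-values weigh a difference between groups against the spread between animals, estimated over all 5 groups. The spread used for the 2 term controls thus comes largely from other groups. With only the groups compared fitted, 116 genes were called at term, beside 397 in the main fit. Counts near the minimum carry more counting error.

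The members, the pathway list and the markers were chosen with earlier results of these data known. The text names all members, up to 4 other pathway genes called in each direction in each comparison, ordered by size, the ID and inhibitory SMAD relatives of called members, and the 3 genes most correlated with each member called. Some genes that the rule names are counted but not reported here. Genes outside this rule are said to have been chosen after their values were seen. Alternatives were median-of-ratios factors, no filter, a prior count of 0.5, limma-voom, fitting only the groups compared, no minimum fold, leaving out each animal, and, added after seeing the data, thinning the LPS 16h libraries to the median total of the others. The change of a single other pathway gene was checked in these ways only in comparisons where it was among the up to 4 named.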

Additional observations from a re-analysis of the deposited data

Results flagged for a closer look

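GREM1 in preterm control 209, at 11.53 CPM, stood apart from the other 3 preterm controls, which were at 5.18 to 5.36 CPM. On the log2 scale the gap to its nearest neighbour was 0.957 of the range of the group. SMAD7 in LPS 16h animal 038, at 25.13 CPM, stood below the other 3 LPS 16h animals, which were at 30.1 to 30.4 CPM, with a gap of 0.935 of the range. Among 20 groups of 4 animals looked at, chance gives about 1 such sample. Without preterm control 209 the GREM1 change at 5 days was -0.97 (adjusted p = 0.0848), and without LPS 16h animal 038 the SMAD7 change at 16 hours had an adjusted p of 0.0121.

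The change after LPS differed between 16 hours and 5 days in 3 of the 10 members, by the direct comparison of these groups. This stands beside 35.0% of all genes tested with an adjusted p below 0.05. The difference was 1.42 on the log2 scale for GREM1 (adjusted p = 0.0083), where all 4 LPS 16h animals were above all 3 LPS 5d animals. It was -1.04 for ID1 (adjusted p = 0.029), where 3 of 4 LPS 16h animals were below all LPS 5d animals, and -0.669 for SMAD7 (adjusted p = 0.0067), where 4 of 4 were. The ID1 call was lost when only the groups compared were fitted (adjusted p = 0.0649). It was also lost without LPS 5d animal 239 (0.134) and without several other single animals.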

How the results depend on the processing

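Across settings other than leaving out an animal, 314 of 320 changes of the members kept their direction and side of the threshold, 2 lost a call and 4 changed sign, and all 50 mean levels moved by less than 1 SD. Leaving out an animal kept 370 of 410, lost 12 calls, gained 6 and changed 22 signs. For named pathway genes 182 of 186 and 205 of 241 were kept, and the others lost a call. With no minimum fold, members called numbered 3 at 16 hours, 4 at 5 days, 4 with LPS + Beta-Ac and 1 at term, and other pathway genes 39, 21, 19, 13 and, for LPS 16h against LPS 5d, 30. Members called fell to 1 at 5 days with limma-voom, and to 1 for LPS 16h against LPS 5d when only the groups compared were fitted. At 5 days BMP4 changed sign to 0.019 with median-of-ratios factors and 0.018 with only the groups compared, and SMAD7 to 0.01 and 0.009.

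With each animal left out in turn, members called ranged from 0 to 1 at 16 hours, 1 to 2 at 5 days, 0 to 1 at term and 1 to 2 for LPS 16h against LPS 5d, and other pathway genes from 5 to 9 with LPS + Beta-Ac and 1 to 6 at term. Signs changed for BMP4 at 16 hours (-0.297 to 0.01), 5 days (-0.064 to 0.089), with LPS + Beta-Ac (-0.135 to 0.018), at term (-0.426 to 0.076) and for LPS 16h against LPS 5d (-0.315 to 0.02). In the last comparison they also changed for TGFB1 (-0.033 to 0.187), TGFB2 (-0.258 to 0.057) and TGFB3 (-0.121 to 0.103). They changed for SMAD7 at 5 days (-0.294 to 0.122), TGFB1 with LPS + Beta-Ac (-0.015 to 0.125), INHBA against LPS 5d (-0.279 to 0.008), and at term for INHBA (-0.659 to 0.122), BMPR2 (-0.026 to 1.322) and GREM1 (-1.537 to 0.23). The cause was not tested. No paired analysis was possible because no animal number occurs in 2 groups. Term values rest on 2 animals, and GREM1 and INHBA on 30 to 336 and 64 to 157 counts per library, which limits how small a change could be seen.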
